A study of Rattus norvegicus with 20 samples.

Results

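Activator protein 1 (AP-1) is a transcription factor assembled from Fos and Jun proteins, and its 7 genes are described here in the supraoptic nucleus (SON) of the rat. The members are Fos, Fosb, Fosl1 and Fosl2 of the Fos family and Jun, Junb and Jund of the Jun family. They were chosen by gene symbol, with earlier results of these data known, and are 7 of the 32402 genes in the deposited tables. Their Ensembl identifiers are ENSRNOG00000008015 (Fos), ENSRNOG00000046667 (Fosb), ENSRNOG00000020552 (Fosl1), ENSRNOG00000052357 (Fosl2), ENSRNOG00000026293 (Jun), ENSRNOG00000042838 (Junb) and ENSRNOG00000019568 (Jund). All 7 passed the filter on low values, a mean of at least 10 normalized counts, in every comparison. The samples were poly(A) RNA of SON punches from male Wistar Han rats, either adult (3 months) or aged (18 months). Rats of each age were euhydrated (EH) or dehydrated (DH), with 5 rats in each of the 4 groups: adult EH, adult DH, aged EH and aged DH. The labels give DH as 2 days, whereas the study's methods give a longer period without drinking water. The adult libraries had been reported before by the same laboratory, and the study's methods state that adult and aged animals were studied side by side. The labels give no sequencing batch.

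Fos and Jun proteins share a basic leucine zipper, the helix through which they pair with each other and grip DNA. Fos proteins bind DNA only as partners of a Jun protein, whereas Jun proteins can also pair among themselves. Fos and several of the others are known as immediate early genes, switched on within minutes by neuronal activity. They respond through MAP kinases, serum response factor and CREB. Fos mRNA has long served as a marker of activated SON neurons after osmotic challenge. Fosl1 (Fra-1) and Fosl2 (Fra-2) encode shorter relatives that lack the strong activation domain of Fos, and their mRNAs tend to come later and stay longer than that of Fos.

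The tables held normalized counts, which are reads per gene divided by a size factor of the library. Whole reads could be recovered from them, and the libraries held between 24268398 and 30348118 reads on genes. Values from the deposited table of each comparison are given, except where levels of all 4 groups are set side by side, which used recovered reads of the 20 libraries on a common scale. The punches held all cell types of the SON and its border, so fewer cells of a type and less RNA per cell cannot be told apart. The transcripts listed here as markers of magnocellular neurons, Avp, Oxt, Pdyn and Gal, were present in every group. A gene is said to be called when its Benjamini-Hochberg adjusted p, from limma over all genes tested, was under 0.05. LFC is the log2 fold change on the scale of log2(normalized count + 1), given with its standard error (SE). Cages of rats were assigned to EH or DH, and the sources used here do not give the cage of a rat. The p-values thus measure the spread between these rats and take no account of rats that shared a cage.

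DH was compared with EH in adult rats to ask which members respond to osmotic challenge. Fosl1, Fos, Fosl2 and Jund rose in adult DH, and for these 4 members all DH rats stood above all EH rats. Fosb, Jun and Junb had higher means in DH but were not called. Across all 15280 genes tested, 12.7% were called in either direction, 7.67% were called higher, and 10.9% had groups that did not overlap.

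Fos, the founding member and a strong activator, had 274.3, 290.4, 166.0, 350.4 and 316.5 normalized counts in the adult EH rats and 633.6, 692.1, 845.5, 437.8 and 464.6 in the adult DH rats. The lowest DH rat stood above the highest EH rat, and the DH rats themselves ranged widely. Its LFC was 1.13 (SE 0.203, 2.19-fold, limma adjusted p = 0.00251).

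Fosb, whose gene also makes the long-lived truncated form ΔFosB, had 62.6, 44.8, 50.1, 62.8 and 82.0 normalized counts in adult EH and 77.4, 78.7, 96.1, 66.2 and 58.6 in adult DH. The groups overlapped in most of their range. Its LFC was 0.33 (SE 0.176, 95% interval -0.05 to 0.70, limma adjusted p = 0.258). Counts per gene do not separate the full-length from the truncated transcript.

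Fosl1 had 14.4, 12.4, 18.5, 34.4 and 21.2 normalized counts in adult EH, and 220.6, 213.4, 242.3, 193.1 and 187.5 in adult DH. The transcript was scarce in EH, with 13 to 34 reads per library, whereas the DH libraries held 172 to 247 reads and stood far above. Its LFC was 3.40 (SE 0.218, 10.6-fold, limma adjusted p = 4.87e-07). The coefficient of variation between rats was 42.9% in EH and 10.4% in DH.

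Fosl2 had 198.2, 221.9, 187.3, 212.7 and 239.3 normalized counts in adult EH and 318.3, 348.1, 316.8, 343.5 and 273.9 in adult DH. The rats of each group lay close together and the groups were apart. Its LFC was 0.59 (SE 0.0858, 1.51-fold, limma adjusted p = 5.43e-04).

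Among the Jun genes, Jund, whose product is usually present at a steady level, was the member called. It had 2396.2, 2659.7, 2506.9, 2335.4 and 2150.0 normalized counts in adult EH and 2693.2, 2885.6, 3247.7, 2930.9 and 2933.6 in adult DH. The gap between the groups was narrow, from the highest EH rat at 2659.7 to the lowest DH rat at 2693.2. Its LFC was 0.29 (SE 0.0570, 1.22-fold, limma adjusted p = 0.00501), below the minimum of 0.5 tried as an alternative.

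Jun, the founding partner of Fos, had a mean of 1745.7 ± 103 normalized counts in adult EH and 1952.3 ± 212 in adult DH (SD, n = 5), which gave an LFC of 0.16 (SE 0.0662, adjusted p from limma 0.147). Without adult DH replicate 1, its lowest DH rat, the LFC was 0.20 and the adjusted p from limma was 0.0483. This was the 1 call among 10 fits that each left out 1 rat, with LFCs of 0.10 to 0.20 and limma adjusted p of 0.0483 to 0.302. Junb, an activity-induced Jun protein that activates more weakly than Jun, had 360 ± 59 in EH and 458 ± 106 in DH (SD, n = 5). Its LFC was 0.33 (SE 0.145, 95% interval 0.02 to 0.64, limma adjusted p = 0.160). Rats of the 2 groups overlapped for both genes.

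The same comparison in aged rats gave 3 called members, Fosl1, Fosl2 and Jund, all higher in DH, and for these 3 the groups did not overlap. The mean of Fos was also higher in DH but was not called. Of 15346 genes tested, 7.29% were called in either direction, 4.05% were called higher, and 7.05% had groups that did not overlap. The adult and aged DH comparisons used separate rats.

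Fos had 244.7, 277.9, 313.1, 582.9 and 240.9 normalized counts in the aged EH rats and 384.4, 527.2, 430.5, 552.2 and 946.7 in the aged DH rats. Aged EH replicate 5, at 582.9, stood above 4 of the 5 DH rats, and the other EH rats stood below all of them. The LFC was 0.78 (SE 0.249, 95% interval 0.25 to 1.32, limma adjusted p = 0.0740). Without aged EH replicate 5 the LFC was 1.01 and the gene was called (limma adjusted p = 0.0135). This was the 1 call among 10 fits that each left out 1 rat. Over these fits the LFC was 0.58 to 1.01 and the limma adjusted p 0.0135 to 0.154.

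Fosb had 57.3, 81.0, 98.1, 106.3 and 67.8 normalized counts in aged EH and 73.8, 44.8, 57.4, 75.3 and 98.8 in aged DH. Rats of both groups were spread over the same range. The LFC was -0.24 (SE 0.214, 95% interval -0.70 to 0.22, limma adjusted p = 0.578).

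Fosl1 had 54.3, 52, 74.1, 68.6 and 30.2 normalized counts in aged EH and 226.2, 166.7, 181.1, 222.7 and 206.7 in aged DH. Every DH rat stood above the highest EH rat, and the lowest EH rat was replicate 6. The LFC was 1.88 (SE 0.199, 3.68-fold, limma adjusted p = 1.70e-04).

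Fosl2 had 179.2, 183.9, 207.7, 210.7 and 172.2 normalized counts in aged EH and 248.5, 278.2, 318.6, 282.7 and 294.4 in aged DH. The groups were apart, as in adults. The LFC was 0.57 (SE 0.0877, 1.49-fold, limma adjusted p = 0.00177).

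Jund had 2578.2, 2375.8, 2359.6, 2503.5 and 2337.9 normalized counts in aged EH and 2666.7, 3173.4, 2849.0, 2680.5 and 2858.4 in aged DH. The highest EH rat and the lowest DH rat lay close together. The LFC was 0.23 (SE 0.0487, 1.17-fold, limma adjusted p = 0.0120), below the minimum of 0.5 tried as an alternative, which ends the call. Jun had an LFC of 0.12 (SE 0.0506, limma adjusted p = 0.186) and Junb of -0.05 (SE 0.177, 95% interval -0.43 to 0.33, limma adjusted p = 0.918). Both had overlapping groups.

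Markers of the tissue around the SON moved with DH in aged rats. Of 6 transcripts typical of cortical and amygdalar neurons, Slc17a7 (LFC -1.92), Neurod6 (-2.49) and Neurod2 (-1.86) were called lower in aged DH. Their summed level was 1676 to 4062 normalized counts in aged EH and 864 to 1620 in aged DH, and none of the 6 was at 0. In adults the sum was 953 to 3099 in EH and 920 to 2332 in DH, and none was called. The part of this tissue in the aged values of Fos, Fosb and Junb was not tested. Among the 4 magnocellular markers, Avp (LFC 0.48) and Pdyn (1.04) were called higher in adult DH, and Pdyn (0.58) in aged DH. Their sums were 205380 to 295602 in adult EH, 296676 to 395179 in adult DH, 265862 to 379866 in aged EH and 315913 to 523978 in aged DH. None of the 7 astrocyte or 7 microglia markers was called in either DH comparison.

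**Figure D1:**
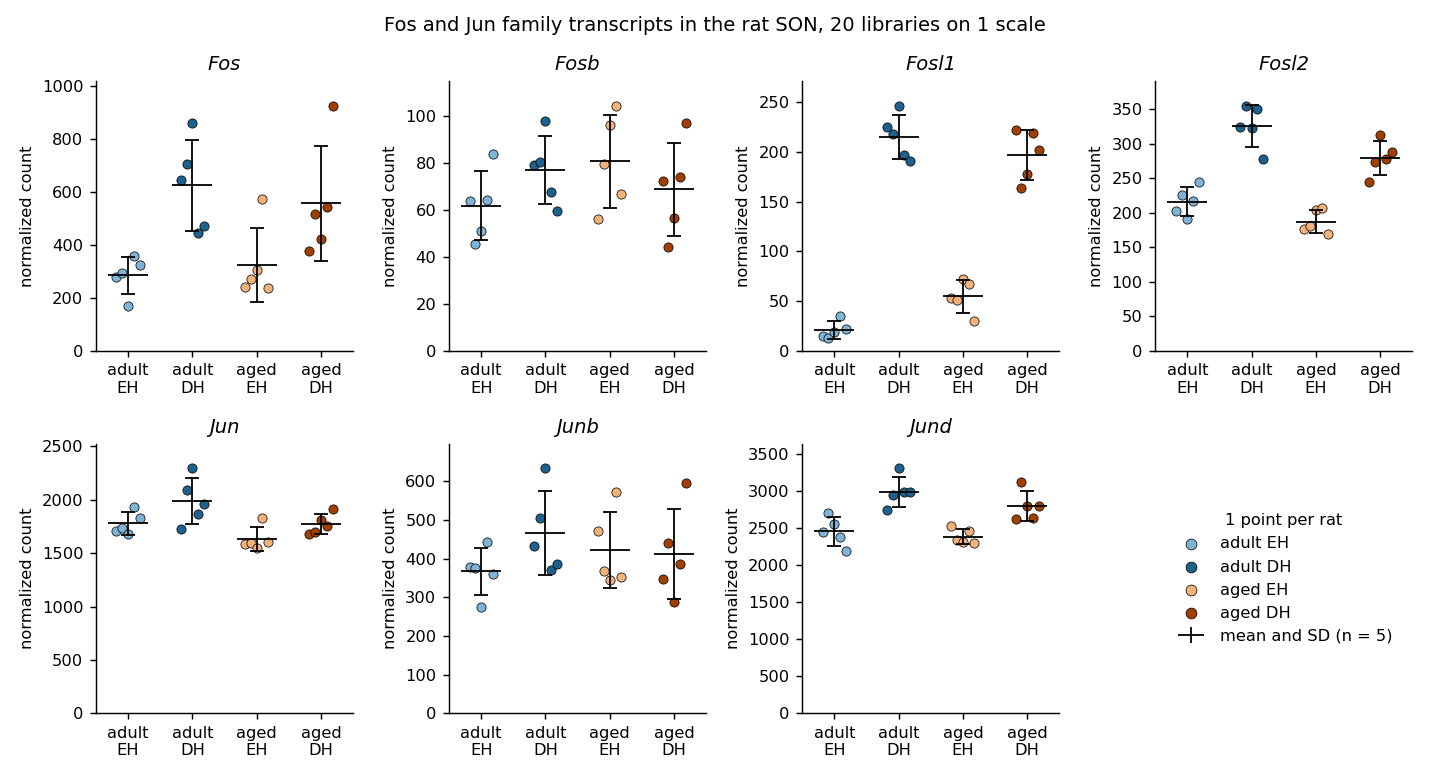
Normalized counts (vertical axis, from 0) of the 7 members in each of the 20 rats, by group, on a common scale made from recovered reads. Points are rats, bars are the mean and SD of 5 rats. Fosl1 separates EH from DH at both ages and is higher in aged EH (29.7 to 72.4) than in most adult EH rats (12.6 to 35.1), whereas Fosb, Jun and Junb overlap among groups.

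Fosl1, Fosl2 and Jund rose at both ages, so their promoters are shown from 250 bases before to 50 bases after the transcript start, as given by RefSeq for the assembly GRCr8. Of the 7 members 5 had a promoter in the RefSeq table, and Fos and Jun had none. Capitals mark matches to TGACG, the core of the cAMP response element (CRE), on either strand, so that a match on the other strand reads CGTCA. The full CRE, TGACGTCA, holds a TGACG match on each strand.
Fosl1, chr1:212183635-212183934, plus strand: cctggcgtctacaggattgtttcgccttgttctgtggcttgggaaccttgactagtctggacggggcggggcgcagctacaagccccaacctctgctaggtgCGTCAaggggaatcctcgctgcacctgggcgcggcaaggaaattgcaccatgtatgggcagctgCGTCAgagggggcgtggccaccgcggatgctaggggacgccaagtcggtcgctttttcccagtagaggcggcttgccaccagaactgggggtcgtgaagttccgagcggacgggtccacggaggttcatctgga
Fosl2, chr6:30039220-30039519, minus strand: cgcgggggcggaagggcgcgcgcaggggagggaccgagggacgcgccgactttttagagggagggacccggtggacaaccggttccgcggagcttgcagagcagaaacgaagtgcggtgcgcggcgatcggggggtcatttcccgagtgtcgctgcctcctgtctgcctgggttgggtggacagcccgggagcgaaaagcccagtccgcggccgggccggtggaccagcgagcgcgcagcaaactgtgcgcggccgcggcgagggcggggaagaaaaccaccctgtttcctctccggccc
Jund, chr16:18769722-18770021, minus strand: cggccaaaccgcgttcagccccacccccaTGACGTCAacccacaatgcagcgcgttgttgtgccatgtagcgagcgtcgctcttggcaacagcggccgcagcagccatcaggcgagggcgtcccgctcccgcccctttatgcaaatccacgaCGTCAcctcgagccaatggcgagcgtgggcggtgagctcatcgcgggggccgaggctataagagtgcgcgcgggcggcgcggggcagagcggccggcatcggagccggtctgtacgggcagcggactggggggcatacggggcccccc
The Jund promoter held a full CRE from -221 to -214 relative to the start, and a further TGACG core from -98 to -94. Full CREs were present in 1.83% of the 33469 RefSeq promoters of this length, and 3 or more TGACG matches in 1.11%. The Fosl1 promoter held 2 TGACG matches, at -148 to -144 and -84 to -80, and 4.96% of promoters held 2 or more. The Fosl2 promoter held none of the motifs searched in this window. The Junb promoter, of a member that was not called, held a TGACG match at -155 to -151, and the Fosb promoter held none. At least 1 TGACG match was present in 21.2% of promoters. None of the 5 windows held the AP-1 site itself, TGANTCA, which occurred in 7.33% of promoters on either strand, or the CArG box of serum response factor, which occurred in 1.64%. Of general promoter elements, CCAAT was found in Jund and Junb (37.5% of promoters) and TATAAA in Junb and, on the other strand, in Fosb (14.2%). GC content was 62.3% for Fosl1, 70.7% for Fosl2, 69.7% for Jund, 65.3% for Junb and 47.7% for Fosb, against a median of 51.7% over all promoters. A match is a string of letters in this window and not a measured binding site.

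Aged EH was compared with adult EH to ask what differs at rest. Fosl1 was the only member called, and it was higher in aged EH. Of 15369 genes tested, 5.99% were called in either direction, 2.69% were called higher, and 6.38% had groups that did not overlap. The EH rats of this comparison are also the controls of the DH comparisons, so the values of these comparisons are not independent.

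In the table of this comparison, Fosl1 had 15.0, 12.9, 19.4, 35.9 and 22.1 normalized counts in the adult EH rats and 54.3, 52, 74.1, 68.7 and 30.4 in the aged EH rats. The lowest aged rat (replicate 6) fell below the highest adult rat (replicate 5), and the other rats did not overlap. The LFC was 1.39 (SE 0.286, 2.63-fold, limma adjusted p = 0.0121). The reads behind these values were 13 to 34 per adult and 33 to 71 per aged library. A filter at a mean of 50 left Fosl1 untested in this comparison. With each of the 10 rats left out in turn, Fosl1 was called in 10 of 10 fits, with an LFC of 1.25 to 1.60.

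The other members were not called, and all had overlapping groups. Fosb had an LFC of 0.37 (SE 0.195, limma adjusted p = 0.311) and Junb of 0.19 (SE 0.144, adjusted p = 0.537). Fos had an LFC of 0.15 (SE 0.233, limma adjusted p = 0.792), which was -0.08 without aged EH replicate 5. Fosl2 (LFC -0.21, SE 0.0900, limma adjusted p = 0.210), Jun (-0.13, SE 0.0511, adjusted p = 0.179) and Jund (-0.04, SE 0.0515, adjusted p = 0.727) had lower means in aged EH.

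Cell type markers moved between the ages. In aged EH, 3 of 7 microglia markers were called higher (Cx3cr1, P2ry12 and Itgam), with a summed level of 7408 to 8501 normalized counts against 6144 to 7101 in adult EH. Fibroblast markers were called lower for 4 of the 5 tested, with sums of 5217 to 8271 against 11465 to 12420, and Col1a2 was listed at 0 in every library. Oligodendrocyte markers were called lower for 4 of 6, with sums of 235433 to 285818 against 264040 to 386912. Astrocyte markers were called lower for 3 of 7 and endothelial markers for 1 of 4. Of the magnocellular markers, Pdyn was called higher (LFC 0.78), with sums of 267560 to 379970 against 213744 to 308053. The part of these cell types in the Fosl1 difference was not tested.

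The response to DH was then compared between the ages by subtracting the LFC of adult rats from that of aged rats in a fit over all 20 rats. No member was called by limma, and of 15326 genes tested 0% were called, although 1522 genes had an unadjusted p under 0.05. With the recovered reads as input, 0 genes were called by edgeR and 56 by DESeq2. Fosl1 had the largest estimate among the members, -1.52 (SE 0.315, 95% interval -2.18 to -0.87), which is a smaller rise in aged rats. Its unadjusted p from limma was 7.82e-05 and its adjusted p was 0.188. The adjusted p was 0.111 with edgeR, and DESeq2 called it (estimate -1.54, adjusted p = 1.45e-04), with its own gene filter in place of the minimum mean. Limma called Fosl1 in 2 of 20 fits that each left out 1 rat, without adult EH replicate 5 (-1.73, adjusted p = 0.0458) and without aged EH replicate 6 (-1.73, adjusted p = 0.0144), and the adjusted p ranged from 0.0144 to 0.306 over the 20 fits.

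For the other members the difference between the ages was estimated with limma at -0.57 for Fosb (95% interval -1.17 to 0.04, adjusted p = 0.540), -0.38 for Junb (-0.90 to 0.14, adjusted p = 0.660) and -0.35 for Fos (-1.09 to 0.39, adjusted p = 0.802). These intervals were wide and included 0, so whether the response of Fos, Fosb or Junb differed between the ages was not resolved. For Fosl2 the estimate was -0.02 (-0.27 to 0.23, adjusted p = 0.976), for Jun -0.04 (-0.22 to 0.14, adjusted p = 0.924) and for Jund -0.06 (-0.23 to 0.10, adjusted p = 0.847), with narrower intervals. Fos was called in adult DH and not in aged DH, but the test of the difference did not separate the ages.

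**Figure D2:**
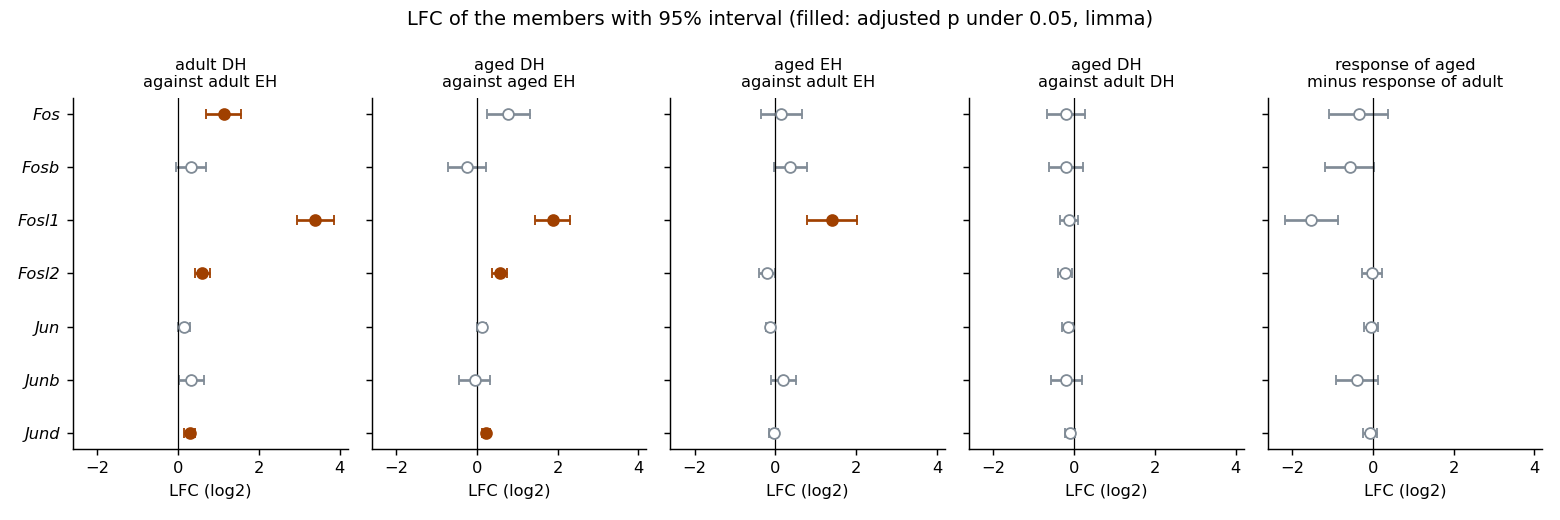
LFC (horizontal axis, log2 scale) of each member in 5 comparisons, with 95% intervals from limma. Filled points have an adjusted p under 0.05. Fosl1, Fosl2 and Jund are filled in both DH comparisons, Fos in adult DH and Fosl1 in the comparison of aged EH with adult EH.

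Set on the common scale, the level of Fosl1 rose in the order adult EH (20.6 ± 8.84 normalized counts), aged EH (54.7 ± 16.7), aged DH (197 ± 25.4) and adult DH (215 ± 22.5; SD, n = 5 each). The DH groups did not differ beyond their spread, with an LFC of aged DH against adult DH of -0.13 (95% interval -0.35 to 0.09, limma adjusted p = 0.446). Aged and adult rats overlapped in DH, and the fold between DH and EH was 10.6 in adult and 3.68 in aged rats, a difference that DESeq2 called and limma and edgeR did not.

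Fosl2 was lowest in aged EH (187 ± 16.8), followed by adult EH (216 ± 20.6), aged DH (279 ± 24.9) and adult DH (326 ± 30.5). The highest adult EH rat and the lowest aged DH rat both stood at 243.8. The EH groups did not pass the test, nor did the DH groups, and the LFC of aged DH against adult DH was -0.22 (95% interval -0.40 to -0.04, limma adjusted p = 0.103). Without adult DH replicate 5 it was -0.28 and was called (limma adjusted p = 0.0447). Among 10 fits that each left out 1 rat this was the 1 call, and the limma adjusted p ranged from 0.0447 to 0.199. Jund followed the same order, from 2384.2 ± 103 in aged EH and 2453.5 ± 192 in adult EH to 2791.0 ± 202 in aged DH and 2991.5 ± 202 in adult DH (SD, n = 5). Adult EH and aged DH rats overlapped for Jund. Its LFC between the DH groups was -0.10 (95% interval -0.22 to 0.02, limma adjusted p = 0.255).

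Fos stood at 285 ± 71 in adult EH, 325 ± 140 in aged EH, 557 ± 217 in aged DH and 626 ± 172 in adult DH (SD, n = 5). Neither the EH groups nor the DH groups differed beyond their spread. Junb ran from 367 ± 60.1 in adult EH through 412 ± 117 in aged DH and 422 ± 98.2 in aged EH to 466 ± 108 in adult DH, and neighbours in that order overlapped. Fosb ran from 61.6 ± 14.7 in adult EH through 68.6 ± 19.9 in aged DH and 76.8 ± 14.5 in adult DH to 80.5 ± 19.9 in aged EH. Jun ran from 1632.7 ± 109 in aged EH through 1772.0 ± 94.5 in aged DH and 1777.6 ± 105 in adult EH to 1987.8 ± 216 in adult DH. Neighbours in these orders overlapped as well. No member was called between aged DH and adult DH, where 10.8% of 15306 genes were called.

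In ratios between members within a rat the scaling of its library cancels, apart from the effect of the pseudocount of 1, and they show unequal change of the 2 transcripts. They were compared between groups by exact permutation tests (two-sided, 5 rats against 5) for 8 pairs in the 3 tables, 24 tests in all, of which 15 had an adjusted p under 0.05. Most of the 15 were pairs with Fosl1, all of which passed in all 3 tables. These tests share the Fosl1 values, and the EH rats recur between tables, so they are not independent. The smallest p that this design can give is 0.00794. In adult rats, log2(Fosl1/Fos) was -3.77 ± 0.57 in EH and -1.50 ± 0.26 in DH (SD, n = 5), a difference of 2.27 (exact permutation p = 0.00794, adjusted p = 0.0173). The ratio rose in aged rats too, from -2.53 ± 0.46 to -1.43 ± 0.53, a difference of 1.10 (exact permutation p = 0.0238, adjusted p = 0.0381). The mean ratios of the ages thus lay closer in DH than in EH, and their difference in DH was not tested.

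In the EH rats the ratio Fosl1/Fos was higher in aged than in adult rats by 1.24 on the log2 scale, with no overlap (exact permutation p = 0.00794, adjusted p = 0.0173). Fosl1/Fosl2 differed in the same direction by 1.60, Fosl1/Fosb by 1.02 and Fosl1/Jund by 1.43 (exact permutation adjusted p = 0.0173, 0.0272 and 0.0272). Fos/Fosb rose with DH by 0.81 in adult and by 1.02 in aged rats (exact permutation adjusted p = 0.0173 and 0.0272). Fos/Jun rose by 0.98 in adult rats (exact permutation adjusted p = 0.0173) and differed by 0.67 in aged rats (adjusted p = 0.0833). Junb/Jun and Jund/Jun did not pass in any of the 3 tables, with differences of -0.17 to 0.31 and adjusted p of 0.0896 to 0.413 by exact permutation.

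Members also varied together from rat to rat. Deviations from the group mean were correlated over the 20 rats, with p-values from 100000 permutations of the rats within their groups, over 21 pairs. Fos and Junb had the highest r, 0.86 (permutation adjusted p = 0.00252, Spearman's rho 0.78, adjusted p = 0.00798), and r was 0.77 without the 2 rats farthest from the median of Fos. Fos and Jun had an r of 0.70 (permutation adjusted p = 0.0132, rho 0.71, adjusted p = 0.0132), Jun and Junb of 0.68 (adjusted p = 0.0132, rho 0.60, adjusted p = 0.0475) and Fos and Fosb of 0.68 (adjusted p = 0.0214, rho 0.63, adjusted p = 0.0300). Without the 2 farthest rats these were 0.57, 0.51 and 0.53. Fosb with Jun (r = 0.50, permutation adjusted p = 0.0798) and with Junb (0.44, adjusted p = 0.183) did not pass.

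The rat with the most Fos in its group also had the most Junb and the most Jun in 4 of 4 groups, and the most Fosb in 3 of 4. These were adult EH replicate 5, adult DH replicate 3, aged EH replicate 5 and aged DH replicate 6. Aged EH replicate 5 stood at 1.86 times the group mean (geometric) for Fos, 1.38 times for Junb, 1.32 times for Fosb and 1.12 times for Jun. Aged DH replicate 6 stood at 1.75 times for Fos, 1.49 times for Junb, 1.45 times for Fosb and 1.08 times for Jun. The same rats stood at 1.03 and 1.01 times the mean for Jund.

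None of the pairs with Fosl1, Fosl2 or Jund passed by r, and that of Fosl1 with Fosb passed by rho. Fosl1 correlated with Fosb at 0.56 (permutation adjusted p = 0.0666, rho 0.74, adjusted p = 0.0118) and with Fos at 0.40 (adjusted p = 0.183). Fosl2 correlated with Fos at 0.54 (permutation adjusted p = 0.0798). The r of Jund with the other members ran from -0.45 to 0.33, and none of those pairs passed. The spread between rats differed by member, with an SD on the log2 scale of 0.398 to 0.524 for Fos and 0.0614 to 0.115 for Jund across groups. The points of a pair share the library, its depth and the position of its punch.

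**Figure D3:**
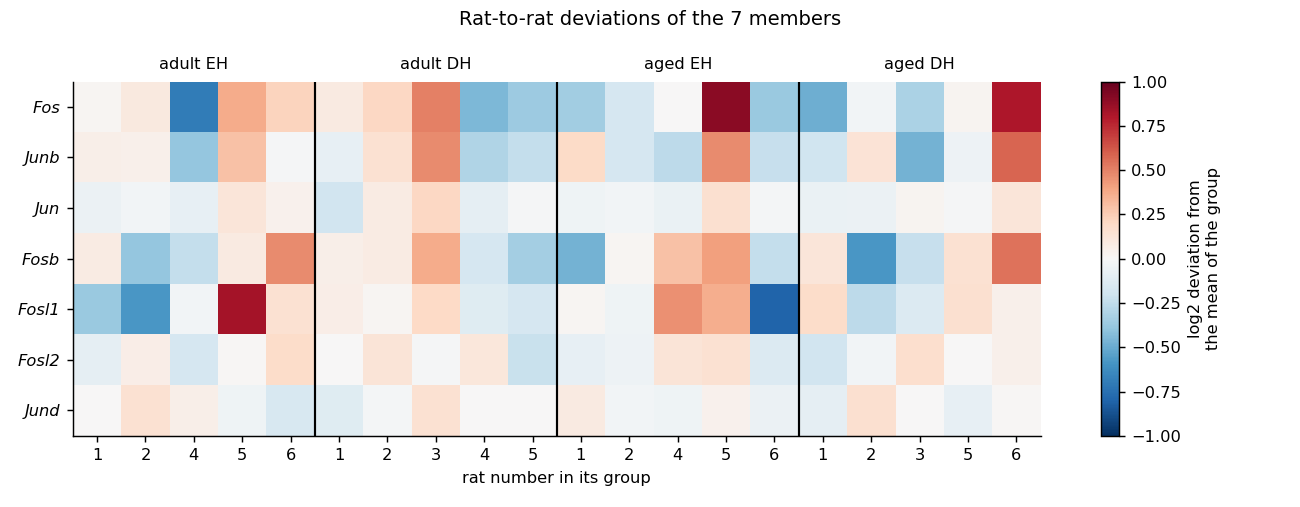
Deviation of each rat (columns, by group and replicate number) from the mean of its group, on the log2 scale, for the 7 members (rows). Red is above and blue below the group mean. Fos, Junb and Jun share their highest rats, such as aged DH replicate 6, and Fosb shares most of them. Deviations of Jun, Fosl2 and Jund are small in every rat, between -0.22 and 0.21.

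The genes whose pattern over the 20 rats was most like each member were sought among 13092 genes with a mean of at least 50. This likeness takes in the difference between EH and DH as well as the rat-to-rat deviations. For Fos they were Dusp1 (r = 0.94), a phosphatase that switches off MAP kinases, Nr4a1 (0.94), an immediate early nuclear receptor, and Spry4 (0.92), an inhibitor of growth factor signalling. With the group means removed, these r were 0.91, 0.89 and 0.79. Junb was most like Egr1 (0.92), Btg2 (0.82) and Dusp1 (0.81), of which Egr1 is an immediate early zinc finger factor. Jun was most like Slc25a32 (0.86), a mitochondrial folate carrier, Dusp1 (0.84) and Klf2 (0.84).

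Fosl1 was most like Tnfaip6 (r = 0.98), which encodes a hyaluronan-binding protein, Giot1 (0.97), a zinc finger gene, and Opn3 (0.97), an opsin. These r were 0.62, 0.65 and 0.61 with the group means removed. Of these, Giot1 (LFC 0.59, limma adjusted p = 0.00650) and Opn3 (LFC 0.83, adjusted p = 0.00717) were also called higher in aged EH than adult EH, and Tnfaip6 had an LFC of 0.33 (adjusted p = 0.431). Fosl2 was most like Tubb4b (0.94), a tubulin, Kcnn3 (0.94), a calcium-activated potassium channel, and Apold1 (0.93). Jund was most like Asmtl (0.89), Map1lc3a (0.89), an autophagosome protein, and Scg2 (0.88), a granin of secretory vesicles. Fosb was most like Ppig (0.81), Polk (0.79) and Ttc21b (0.78), none of which was called in either DH comparison.

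Textbook AP-1 target genes were described next, and 20 of the 24 listed were tested. In adult DH 7 were called higher and 1 lower, and their median LFC was 0.17, against -0.007 over all genes tested. In aged DH 6 were called higher and 0 lower, and the median was 0.05, against -0.003. Over all genes tested, 12.7% were called in adult DH (7.67% higher) and 7.29% in aged DH (4.05% higher). These shares apply to the lists that follow as well. All lists were written with earlier results of these data known. Plaur, the urokinase receptor, had 26.3 ± 7.09 normalized counts in adult EH and 171 ± 36.6 in adult DH (SD, n = 5), with an LFC of 2.66 (SE 0.196, adjusted p from limma 1.68e-06). In aged rats Plaur had 36.2 ± 8.89 in EH and 145 ± 23.7 in DH, with an LFC of 1.99 (SE 0.182, adjusted p from limma 5.34e-05).

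Plaur, Mmp9, Hmox1, Pdyn and Th were called higher in DH at both ages. Mmp9, a matrix-degrading enzyme, had LFCs of 1.52 and 1.37 in adult and aged DH. Th, which makes the precursor of catecholamines, had 1.62 and 1.24, and Pdyn, the dynorphin precursor that vasopressin neurons release, had 1.04 and 0.58. Tgfb1 (0.25) was also called in adult DH, and Nts (0.42), neurotensin, in aged DH. Ccnd1, cyclin D1, was the gene called lower in adult DH (-0.21), and the lowest LFC of the list in aged DH was that of Timp1 (-0.42, limma adjusted p = 0.247). Hmox1, heme oxygenase, had 0.39 and 0.46. Pdyn is also listed as a magnocellular marker and Gfap as an astrocyte marker. In aged against adult EH, Th (1.23), Mmp9 (1.17) and Pdyn (0.78) were called higher and Ccnd1 (-0.39) lower, with a median of 0.05 over the list and 0.000 over all genes. Of all genes tested, 5.99% were called in that comparison (2.69% higher).

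**Figure D4:**
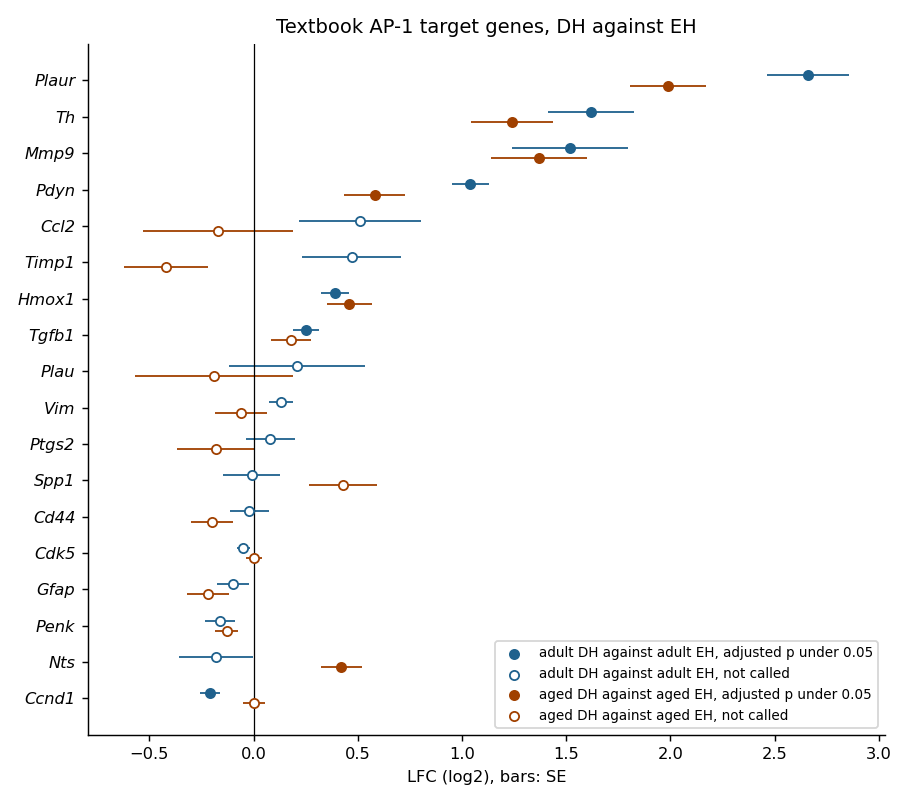
LFC of DH against EH (horizontal axis, log2 scale, bars are SE) for 18 of the 20 AP-1 target genes tested, in adult and aged rats. Filled points have an adjusted p under 0.05. Plaur has the highest LFC at both ages, 2.66 and 1.99.

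Among 14 bZIP partners that can pair with Fos or Jun, 10 were tested and Maff, a small Maf protein, was the gene called, higher in DH at both ages. Maff had 54.9 ± 9.24 normalized counts in adult EH and 129 ± 19.2 in adult DH (SD, n = 5; LFC 1.22, SE 0.139, limma adjusted p = 7.25e-05). In aged rats it had 70.5 ± 3.81 in EH and 160 ± 18.8 in DH (LFC 1.17, SE 0.106, limma adjusted p = 5.34e-05). Atf3, a stress-induced partner of Jun, had LFCs of -0.08 and -0.18 (limma adjusted p = 0.836 and 0.613). The lowest LFC in aged DH was -0.21 for Maf, and the median LFC of the list was -0.04 in adult and 0.00 in aged DH. None was called between aged EH and adult EH, where the median was -0.04.

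Of 16 upstream MAP kinases and their partners 15 were tested, with medians of 0.01 in both DH comparisons and 0.02 in aged against adult EH. In adult DH, Rps6ka3 (LFC 0.24), which encodes a kinase of CREB, and Map2k4 (0.17), a kinase upstream of JNK, were called higher, and Map2k6 (-0.24), upstream of p38, was called lower. The highest LFC was that of Map3k1 (0.29, limma adjusted p = 0.344). No kinase was called in aged DH, where the highest was Rps6ka1 (0.14) and the lowest Map2k6 (-0.23, adjusted p = 0.108), or in aged against adult EH.

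Of 16 factors known to act on Fos and Jun promoters 15 were tested, and the median LFC was 0.01 in adult and -0.04 in aged DH. Crem, a CREB relative, rose in DH at both ages (LFC 0.55 and 0.44, limma adjusted p = 2.90e-04 and 6.01e-04). Its counts went from 334 ± 32.3 to 488 ± 29.9 in adult and from 362 ± 13.0 to 491 ± 22.4 in aged rats (SD, n = 5). In adult DH, Elk3 (0.27), Elk4 (0.19) and Stat3 (0.10) were also called higher, and Elk1 (-0.17) and Crtc1 (-0.13) lower. Mef2c had the lowest LFC at both ages, -0.23 in adult (limma adjusted p = 0.140) and -0.41 in aged DH (adjusted p = 0.00325). Elk1 was called lower in aged than adult EH (-0.19), where the list's median was -0.03.

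Of 10 regulators of Jun and Fos protein activity or turnover, all tested, Trib1, an adaptor of the COP1 ubiquitin ligase, rose in DH at both ages (LFC 0.85 and 0.58, limma adjusted p = 7.36e-05 and 0.00458). Cops5 (0.13), which acts on Jun proteins, was also called higher in aged DH. The lowest LFCs were those of Fbxw7 (-0.16 in adult and -0.15 in aged DH), and the list's median was 0.07 in both DH comparisons. None was called between aged EH and adult EH, where the median was 0.00. For the contrast between the ages in their response to DH, 0 genes of any of these lists were called. Limma called 0% of all 15326 genes tested there, so this count does not set the lists apart.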

How the data were processed

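The study sequenced poly(A) RNA from SON punches of 20 rats. The authors mapped trimmed reads to Rn6 using STAR and obtained gene counts with featureCounts, whose versions the sources used here do not give. The signal in each deposited column is the count that the authors divided by a DESeq2 size factor estimated within each of the 3 tables. Columns of the authors' own fold changes and p-values were not used. All 30 sample columns were used.

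Log2(normalized count + 1) was tested with limma 3.58.1 (R 4.3.3, trended moderation, two-sided), for genes with a mean of at least 10, without an LFC filter, and p-values were adjusted by Benjamini-Hochberg over all of them. Dividing each column by its smallest step gave whole reads, within 0.1 read, for 100% of values up to 1000 reads. These reads were tested with edgeR 4.0.16 and DESeq2 1.42.0 as alternatives, and scaled over 20 libraries with DESeq2 size factors. That common scale, the comparison of aged DH with adult DH and the permutation p-values of correlations were added after the data had been seen. Scripts were tested on simulated data. Exact permutation tests used scipy 1.17.1 and figures matplotlib 3.10.9.

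The members and gene lists were chosen with earlier results of these data known. Named genes are the members, the list and marker genes that were called or had the highest or lowest LFC of their list, and the 3 genes most like each member; Atf3 was named after its values were seen. Some list genes that this rule names are not reported here. Markers were listed for magnocellular neurons, astrocytes, microglia, oligodendrocytes, endothelium, fibroblasts, blood, cortex and amygdala, choroid plexus and handling stress. Replicate numbers come from the labels and mark separate animals, so they pair no rats across groups. Alternatives changed 1 choice each, except that edgeR and DESeq2 changed the test, its input, the normalization and the gene filter together (DESeq2 gave p-values for 23265 genes in the difference between the ages, against 15326 tested by limma). Fits were repeated without each rat. Rn6 positions are not given, since the reference at hand is GRCr8.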

Additional observations from a re-analysis of the deposited data

Results flagged for a closer look

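In groups of 5 rats, the gap from the highest or lowest rat to its neighbour was divided by the range of the group and set against Dixon's 95% critical value. Of 42 checks (7 members, 2 groups in each of 3 tables, with each EH group in 2 tables), 4 passed, and chance flags about 1 group in 20. All 4 were the same animal, aged EH replicate 5, the highest rat of its group for Fos (582.9 normalized counts in the table of aged DH and 583.4 in that of aged against adult EH) and for Jun (1859.8 and 1861.5). The library was not flagged for Fosl1, Fosl2 or Jund. Its summed marker levels lay within the range of the other aged EH rats for 8 of 10 lists, among them cortex and amygdala (2327 normalized counts, others 1676 to 4062) and blood (22661, others 9403 to 23077). The sum of the handling stress markers was the highest of its group (1737, others 1427 to 1730) and that of the oligodendrocyte markers the lowest (235216, others 235997 to 285387), and their part in its Fos and Jun values was not tested. With it left out, Fos was called in aged DH (LFC 1.01, limma adjusted p = 0.0135), the 1 call among 10 fits that each left out 1 rat. Aged DH replicate 6, the highest of its group for Fos (946.7), was not flagged. No member's difference between the ages was called by limma.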

How the results depend on the processing

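Between 21 and 32 alternatives were run for the count of members called in each comparison. The count stayed within 1.5 times of the reported value in all 23 for adult DH (3 to 5 members) and all 23 for aged DH (2 to 4). For aged EH against adult EH it was 0 with a filter at a mean of 50, which removes Fosl1, and 1 in the other 21. For the difference between the ages it was 1 with DESeq2, and 0 to 1 when rats were left out. For aged DH against adult DH it was 0 to 1 when rats were left out. The fit with a replicate block called 4 members in adult DH, 2 in aged DH, 1 in aged against adult EH, 0 between the DH groups and 0 for the difference between the ages, and Jund lost its call in aged DH (LFC 0.21, limma adjusted p = 0.0950). The numbers mark separate animals, and same-numbered rats correlated at -0.083 to 0.162. A minimum LFC of 0.5 ended the calls of Jund (0.29 and 0.23). Uncalled values near 0 changed sign. Junb in aged DH was 0.01 with the replicate block and -0.19 to 0.07 with rats left out, Fos in aged against adult EH was -0.08 to 0.24, and the difference between the ages was -0.07 to 0.03 for Fosl2 and -0.09 to 0.02 for Jun. The cause was not tested. Of 264 alternative values of the ratios, 230 kept their call and direction, 33 lost and 1 gained a call, and 0 changed direction. The number of ratios past the threshold was 11 to 15. Of 400 alternative counts of called list genes, 354 stayed within 1.5 times.

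Rescaling libraries to the same total changed the split of all called genes from 1172 higher and 762 lower to 890 and 1161 in adult DH, and from 414 and 507 to 302 and 747 in aged against adult EH, with shifts of the median LFC under 0.1. The replicate block called 987 genes in adult DH, 653 in aged DH and 1091 between the DH groups, against 1934, 1119 and 1647. Depth limits Fosl1 most, with 13 to 34 reads per adult EH library.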

Other observations

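In the comparison of aged DH with adult DH, made on the common scale after the data had been seen, the AP-1 target genes Mmp9 (LFC 1.03), Th (0.85), Spp1 (0.71) and Nts (0.46) were called higher in aged DH, and Timp1 (-0.67) and Ccnd1 (-0.18) lower, by limma over all genes tested. Their list had a median LFC of -0.06, against 0.002 over all genes, of which 10.8% were called in either direction. Of the bZIP partners, Nfe2l2 (0.18) was called higher and Maf (-0.31) lower. Rps6ka3 (-0.24) of the kinases, Elk1 (-0.14) and Elk4 (-0.15) of the promoter factors and Cop1 (-0.14) of the regulators were called lower. Of the 15 promoter factors 14 had lower values in aged DH, and the median LFC was -0.11. Markers of other cell types also differed between aged DH and adult DH. All 5 fibroblast markers tested were called lower, with Col1a1 and Col3a1 both at -1.80, as were 4 of 7 astrocyte markers (-0.36 to -0.22). Of 7 microglia markers, 3 were called higher (0.32 to 0.60). Of the cortical and amygdalar markers, Slc17a7 (-1.33) and Neurod6 (-1.63) were called lower, and of the choroid plexus markers Ttr (-2.15) was lower and Clic6 (1.47) higher. The part of these cells in the values of the list genes was not tested. Blood markers had sums of 6538 to 16095 normalized counts in adult DH and 10803 to 22713 in adult EH, of 7334 to 13797 in aged DH and 9403 to 23077 in aged EH, and Hbb was called lower in aged DH (LFC -0.84). Of the oligodendrocyte markers, Cnp was called lower in adult DH (-0.27) and Mobp higher in aged DH (0.35). Endothelial markers were not called in either DH comparison. Choroid plexus markers had sums of 246 to 805 in the adult and 270 to 598 in the aged table, with Clic6 called lower in adult DH (-0.59). Handling stress markers were not called in any comparison.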
